A study of Mus musculus with 6 samples.

Results

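The mitochondrial carrier family of the liver was followed here in WT mice and in mice without *Txndc5*. The genes were taken by name from the deposited table: every symbol that starts with *Slc25a*, together with *Ucp1*, *Ucp2*, *Ucp3*, *Mtch1* and *Mtch2*, and without *Slc25a20*. This gave 48 of the 16123 genes in the table. By the same name rule the GENCODE M21 annotation of mouse build GRCm38 holds 51 coding genes, and *Slc25a2*, *Slc25a41* and *Slc25a54* have no line in the table, which says nothing about their level.

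Carriers of this family are small proteins of the inner mitochondrial membrane. Each exchanges a set of cargoes between the cytosol and the matrix, among them nucleotides, phosphate, citrate, amino acids, iron, glutathione and cofactors. In the liver they connect the mitochondria with gluconeogenesis, the urea cycle and the export of citrate for lipid synthesis. A few relatives sit in other membranes: *Mtch1* and *Mtch2* in the outer mitochondrial membrane, where they take part in the insertion of proteins, and *Slc25a17* in the peroxisome.

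*Txndc5* encodes a protein disulfide isomerase of the endoplasmic reticulum. RNAseq was carried out on livers of male mice, described as 2 months old when the diet began, WT of the strain labelled C57BL/6Rj and KO of the strain C57BL/6JRj-Txndc5<em2Mdnp>/Ciba, in which exon 3 was removed in the germ line by CRISPR, so that all cells of these mice lack it. The KO mice descend from a single founder, and both genotypes received a purified chow for 4 weeks and were fasted for 16 h. There were 3 RNA pools per genotype, each described as combining the RNA of 3 mice, so the spread between individual mice is not seen. The numbers of mice given elsewhere for these pools differ from this, so the mice per pool are not certain. The libraries held 44040160 to 46050030 clean reads, of which 62.19 to 65.69% mapped to a single place. All 8 hepatocyte markers looked up, from *Alb* to *Pck1*, were in the table, with 3 of 8 higher in KO and a log2 ratio of their sums of -0.12. Of 6 lymphocyte markers 1 was higher in KO, with sums of 63.6 in WT and 49.2 in KO. The value of *Txndc5* itself was 2697 in WT and 90.8 in KO.

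For each gene the table holds 1 value per genotype, on the scale of reads divided by the size factor of the library, which combines the 3 pools. It is not the mean of the pools. For *Slc25a30* the table gives 74.4 (WT) and 97.5 (KO), where the recovered reads average 71.6 and 100.3. For *Slc25a18* it gives 0.244 for WT, although 0 reads were recovered there. The WT and KO values below, and sums of them, are such values. How far those of strongly read genes differ from pool means was not tested. A log2 ratio is given below as the log2 of the KO value over the WT value, and it has no spread between pools and no test. These ratios are pulled toward 0: for weakly read genes beyond a small difference, the ratio recalculated from the reads of single libraries was larger by a median factor of 1.43 at sums of normalized reads of 60 to 200, of 1.24 at 200 to 400 and of 1.20 at 400 to 600. For 18 weakly read carriers the table still fixed the reads in every library, and only these 18 have a spread between pools. No pool number could be tied to these libraries, so they are named by their size factors, 1.22, 0.879 and 0.818 in WT and 1.31, 1.04 and 0.886 in KO.

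The promoters of 4 carriers are shown because 3 of these genes are central to the expression results and the last holds a motif rare in this family. *Slc25a47* and *Slc25a39* had the highest levels, *Slc25a29* had the lowest ratio of KO over WT and lies beside *Slc25a47*, and *Slc25a25* had the second-highest ratio. The sequences are from RefSeq on GRCm38.p6 and give the 250 bases before the annotated start, 5′ to 3′ on the strand of the gene. The windows lie at chr12:108835877-108836126 on the minus strand for *Slc25a29*, chr12:108850879-108851128 on the plus strand for *Slc25a47*, chr11:102407518-102407767 on the minus strand for *Slc25a39* and chr2:32424067-32424316 on the minus strand for *Slc25a25*. *Slc25a25* has 3 windows with different starts, and the one with the rare motif is printed. Capitals mark the GC box (GGGCGG or its reverse complement CCGCCC, the letters bound by SP1) and the cAMP response element (TGACGTCA).
Slc25a29: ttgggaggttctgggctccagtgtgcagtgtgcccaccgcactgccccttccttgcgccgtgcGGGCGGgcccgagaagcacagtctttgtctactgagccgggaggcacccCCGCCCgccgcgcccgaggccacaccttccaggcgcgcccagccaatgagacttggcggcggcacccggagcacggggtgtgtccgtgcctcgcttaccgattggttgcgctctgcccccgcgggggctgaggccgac
Slc25a47: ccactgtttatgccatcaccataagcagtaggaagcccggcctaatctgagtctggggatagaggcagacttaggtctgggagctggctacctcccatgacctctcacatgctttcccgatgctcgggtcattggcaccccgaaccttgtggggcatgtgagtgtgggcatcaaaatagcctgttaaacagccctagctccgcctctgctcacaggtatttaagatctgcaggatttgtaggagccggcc
Slc25a39: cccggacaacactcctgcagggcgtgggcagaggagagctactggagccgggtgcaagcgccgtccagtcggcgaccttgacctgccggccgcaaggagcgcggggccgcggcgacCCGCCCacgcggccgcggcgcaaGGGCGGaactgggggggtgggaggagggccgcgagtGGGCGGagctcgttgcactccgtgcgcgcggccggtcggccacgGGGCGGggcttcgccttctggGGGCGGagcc
Slc25a25: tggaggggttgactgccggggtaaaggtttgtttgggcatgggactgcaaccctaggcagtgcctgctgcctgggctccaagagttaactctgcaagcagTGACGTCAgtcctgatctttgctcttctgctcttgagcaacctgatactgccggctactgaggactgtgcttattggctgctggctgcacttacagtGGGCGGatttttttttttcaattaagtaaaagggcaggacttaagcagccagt

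The window of *Slc25a29* held 2 GC boxes, that of *Slc25a39* held 5 and that of *Slc25a47* none, with 71.2, 77.2 and 54.4% of the bases G or C. The printed window of *Slc25a25* held 1 GC box and 1 cAMP response element, 150 to 143 bases before the start. Promoters were given for 39 of the 48 carriers, in 50 windows. A GC box stood in 70.0% of these windows, against 52.5% of the 15947 windows of all genes in the table and 32.7% of all 32851 windows. The median content of G and C was 58.2% in the carrier windows, 58.8% in the windows of genes in the table and 52.4% in all windows. The part of base content in the share of GC boxes was not tested.

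The cAMP response element was found in 2 of 50 windows, of *Slc25a25* and *Slc25a36*, or 4.0% against 2.35% for the genes in the table. The E box CACGTG stood in 8 windows of 7 carriers, or 16.0% against 7.71%, the core letters of the NRF1 site (TGCGCA) in 12% against 9.87%, and the ETS letters CCGGAAG, which GABP binds, in 10% against 11.6%. The TATA box TATAAA was found in 4.0% against 7.65%, in *Slc25a18* and *Slc25a21*, and the HNF1 letters GTTAAT in 2.0% against 4.63%. No carrier window held the letters CAAAGTCCA (HNF4) or TGTTTAC (FOXA), which stood in 0.445 and 2.33% of the windows of genes in the table. All motifs were searched on both strands, and no overlap between motifs was removed. The shares are a description of letters in short windows.

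Levels of the carriers were compared per kb of transcript, as the mean of the WT and KO values divided by the length of the longest annotated transcript. *Slc25a47*, a carrier known mainly from liver and of debated cargo, was highest with 12226 per kb, followed by *Slc25a39*, which takes glutathione into the matrix, with 11536. The 3 highest carriers, with *Slc25a10* (the dicarboxylate carrier, 4082) as the third, made up 56.03% of the summed level of all 48, and the 10 highest made up 87.51%. The next were *Slc25a5* (the ADP/ATP carrier ANT2) with 3579, *Slc25a3* (the phosphate carrier) with 2943, *Slc25a1* (the citrate carrier) with 2756, *Slc25a22* (a glutamate carrier) with 2224, *Slc25a23* and *Slc25a25* (carriers of ATP-Mg against phosphate) with 1810 and 1302, and *Mtch1* with 1031. *Slc25a47* and *Slc25a39* were the 2 highest with each of 3 lengths tried, but the third place changed, and with the median transcript *Slc25a39* came before *Slc25a47*. No spread is known for these levels, so neighbours in this order cannot be told apart.

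**Figure D1:**
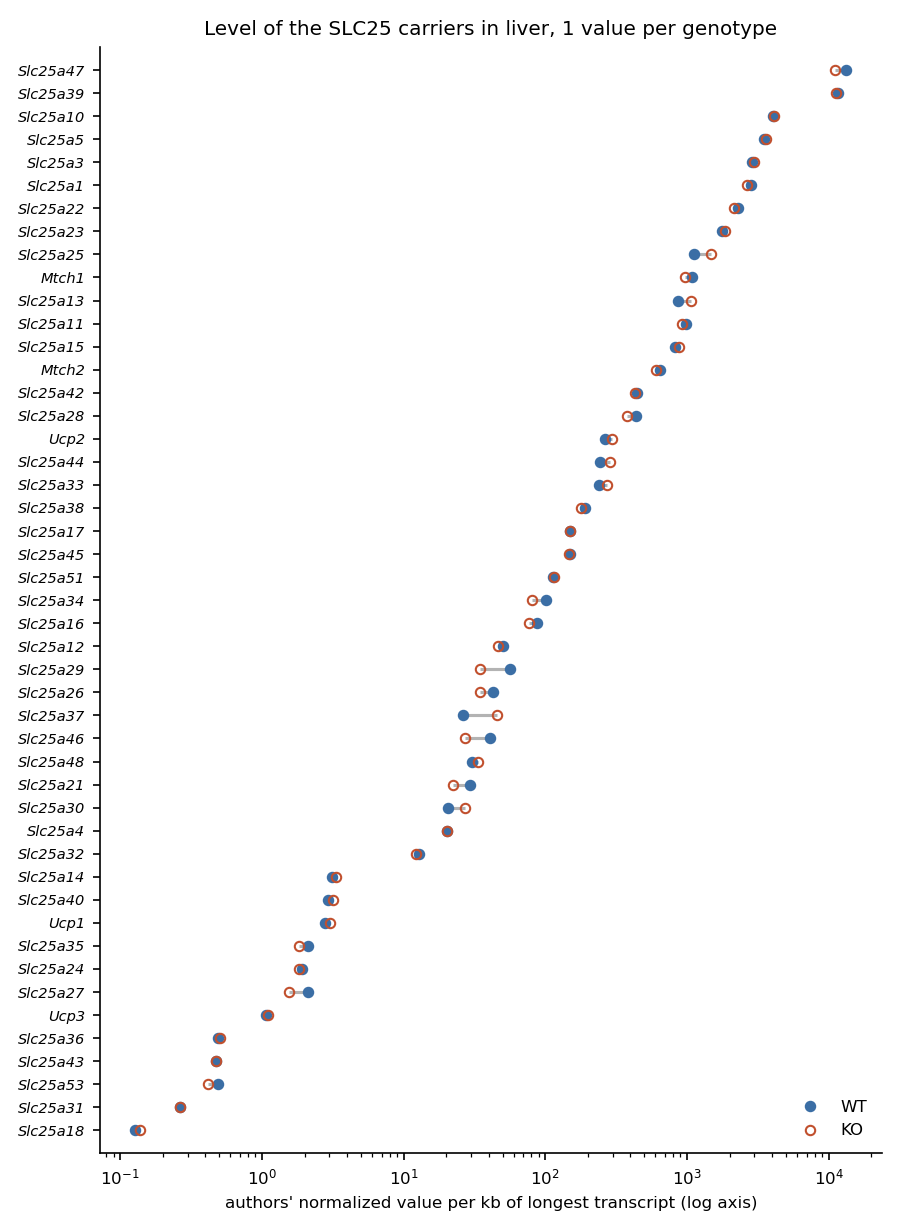
Level of 47 of the carriers, as the authors' normalized value per kb of the longest transcript on a log axis, with 1 value for WT (filled) and 1 for KO (open). The carriers run from *Slc25a18* at 0.133 to *Slc25a47* at 12226 per kb, and the WT and KO values of a carrier lie close together compared with this range.

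Several related carriers differed widely in level, and others differed less. *Slc25a5* was 177-fold above *Slc25a4* (ANT1, the form of heart and muscle), and 98.7-fold with the length column of the table, but 12.01% of the 100-base windows of *Slc25a5* also occur in other genes. Of the aspartate-glutamate carriers of the malate-aspartate shuttle, *Slc25a13* (citrin) was 19.9-fold above *Slc25a12* (aralar), and 9.11-fold with that column. *Slc25a39* was 3768-fold above its relative *Slc25a40*, and 8085-fold with the median transcript. *Slc25a40* had 56 recovered reads in all 6 libraries. The iron carriers of the mitoferrin pair, *Slc25a28* and *Slc25a37*, were at 407 and 36.2 per kb. *Ucp2* was at 279 per kb, against 2.90 for *Ucp1* and 1.09 for *Ucp3*, which is 96.1-fold and 256-fold, and 516-fold and 1043-fold with the median transcript. *Slc25a47* was 381-fold above *Slc25a48*, and 199-fold with the length column. *Slc25a10* was 4.26-fold above *Slc25a11* (the oxoglutarate carrier), and 1.92-fold with the median transcript. *Mtch1* was at 1031 against 629 for *Mtch2*. Summed over the family, the level was 50857 per kb for WT and 48529 for KO (log2 ratio -0.07).

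Between the genotypes most carriers differed little. Of the 36 carriers with a mean value of at least 10, 16 had a ratio above 0 and 20 below, with a median log2 ratio of -0.04 and quartiles of -0.12 and 0.08. Among all 11367 genes past the same filter, 42.3% were above 0 and 57.7% below, with a median of -0.05 and quartiles of -0.23 and 0.13. Beyond 0.5 lay 3 carriers, *Slc25a37* upward and *Slc25a29* and *Slc25a46* downward, against 10.4% of all genes in either direction, 2.48% upward and 7.9% downward. With the limit at 0.3 there were 3 carriers above it and 5 below it, against 9.44 and 18.1% of all genes. These shares are near those of all genes, with so few carriers that no difference from them is read. The other 28 of the 36 lay within 0.3 of 0.

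**Figure D2:**
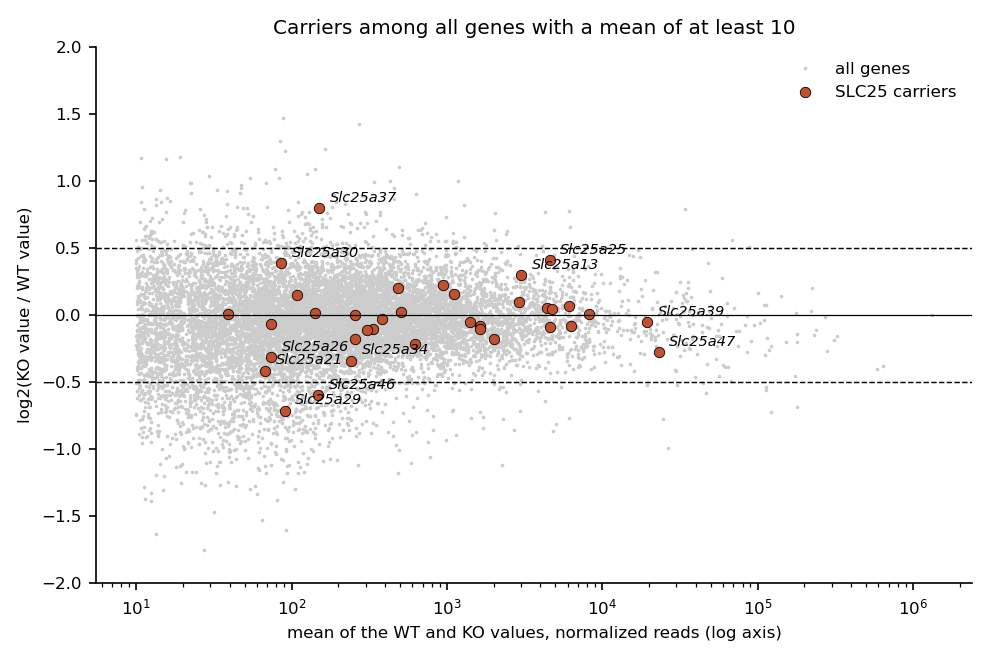
Log2 ratio of KO over WT (y axis) against the mean of the WT and KO values in normalized reads (x axis, log), for the 36 carriers with a mean of at least 10 (red) and all 11367 such genes (grey), with dashed lines at 0.5 in either direction. The 16 carriers with a mean of at least 1000 lie between -0.27 and 0.41, and 4 genes, none a carrier, lie outside the plotted range.

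The carriers of adenine nucleotides, phosphate and related cofactors include those that supply the matrix with ADP and phosphate for ATP synthesis. Of 10 with a mean of at least 10, 7 had a ratio above 0, with a median of 0.03. *Slc25a25* had the highest ratio among them, 0.41, with values of 3944 in WT and 5246 in KO. Its relative *Slc25a23* had a ratio of 0.07 with values of 5943 and 6227. *Slc25a5* and *Slc25a3* had ratios of 0.06 and 0.05. The lowest ratio was -0.18, for *Slc25a16*. *Slc25a33*, which carries pyrimidine nucleotides, had 0.20, and *Slc25a42*, which carries coenzyme A, had -0.05. *Slc25a17* was at 0.00, and *Slc25a24*, *Slc25a36* and *Slc25a31* fell below the filter.

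Carriers of dicarboxylates, citrate and oxoglutarate had a median of -0.09, and 4 of 5 were below 0. *Slc25a21*, which carries oxoadipate of lysine breakdown, had a ratio of -0.41 with values of 77.4 and 58.2. *Slc25a34*, a less studied member, had a ratio of -0.34 with values of 271 and 214. The abundant members differed less, with ratios of 0.01 for *Slc25a10*, -0.09 for *Slc25a1* and -0.08 for *Slc25a11*. *Slc25a35* fell below the filter, and 31.3% of its exon bases lie in exons of *Rangrf* on the opposite strand.

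Of 11 carriers grouped with amino acids, the malate-aspartate shuttle and the urea cycle, 4 were above 0 and 7 below, with a median of -0.08. This group also holds *Slc25a47*, whose cargo is debated, and *Slc25a48*, a choline carrier, so its name does not describe all of its members. *Slc25a13* had the highest ratio, 0.30, with values of 2695 in WT and 3318 in KO, and its relative *Slc25a12* had -0.11. *Slc25a15*, which exchanges ornithine and citrulline for the urea cycle, had 0.10, *Slc25a44* (branched-chain amino acids) 0.22, and *Slc25a48* 0.15. *Slc25a47* had a ratio of -0.27, with values of 25286 and 20928. *Slc25a22* was at -0.08, *Slc25a38* (glycine) at -0.10 and *Slc25a45* at -0.03. *Slc25a26*, which carries S-adenosylmethionine, was at -0.32 with values of 82.4 and 66.2.

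*Slc25a29*, a carrier of basic amino acids, had the lowest ratio of all carriers past the filter, -0.71, with values of 112 and 68.5. It lies on the minus strand at chr12:108825873-108835883. *Slc25a47* lies next to it at chr12:108836046-108856815 on the opposite strand, and its coding transcript starts 15246 bases from the start of *Slc25a29*, while a non-coding transcript starts 163 bases from it. Both neighbours had ratios below 0, -0.71 and -0.27, and the genes on either side of the pair, *Yy1* and *Wars*, were at 0.11 and 0.06. With 1 value per genotype no relation between the pair can be tested.

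**Figure D3:**
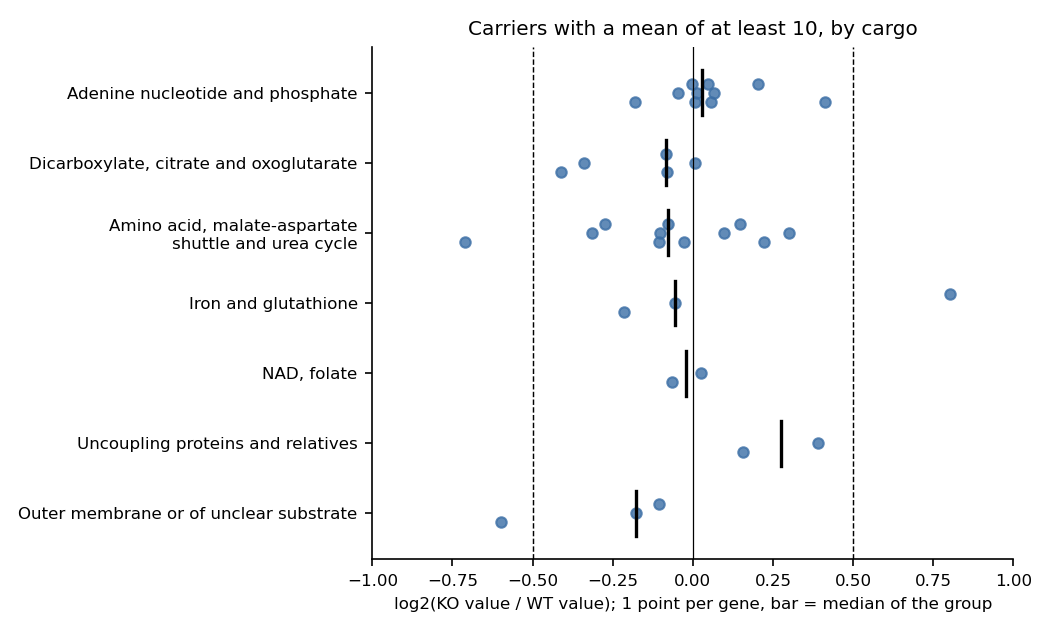
Log2 ratio of KO over WT for each of the 36 carriers with a mean of at least 10, grouped by cargo (1 point per gene, bar at the median of the group, dashed lines at 0.5 in either direction). The group medians run from -0.18 for the outer membrane group to 0.27 for the uncoupling proteins, which rests on 2 genes, and *Slc25a37* at 0.80 stands away from the other 2 genes of the iron and glutathione group.

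Among the carriers of iron and glutathione, *Slc25a37* (mitoferrin 1, known for iron import in developing red cells) had the highest ratio of all carriers past the filter, 0.80, with values of 110 and 192. *Slc25a28* (mitoferrin 2, found in most tissues) had -0.21, with values of 670 and 578, and *Slc25a39* had -0.05. The markers of red cells moved with *Slc25a37*: 10 of 10 had higher values in KO, their summed value was 118838 (WT) and 180446 (KO), and their median log2 ratio was 0.64. *Slc4a1*, the anion exchanger of red cells, had 26, 31 and 39 reads in the WT libraries and 37, 112 and 254 in the KO libraries. The reads of *Slc25a37* itself could not be recovered, so its place among the libraries is unknown, and the part of red cells in its ratio was not tested. In bulk tissue more cells of a type and more RNA per cell cannot be told apart. The nearest coding genes with a mean of at least 10 lay far from *Slc25a37* on the left. There, *Dock5* and *Kctd9*, 1308406 and 1499538 bases away, were at 0.36 and 0.16. To the right, *Entpd4* and *Loxl2*, 52062 and 323956 bases away, were both at 0.15. No relation to these genes was tested. *Slc25a37* shares 6.3% of its exon bases with *Gm31748* and 1.5% with *Gm27223*, on the opposite strand.

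*Slc25a51* (NAD) and *Slc25a32* (folate and FAD) had ratios of 0.02 and -0.07. Of the uncoupling proteins and their relatives, *Ucp2* and *Slc25a30* passed the filter. *Ucp2*, which is known to be read in Kupffer cells as well as in hepatocytes, had a ratio of 0.16 with values of 1051 and 1172. Of the Kupffer cell markers 4 of 6 had higher values in KO. All 6 summed to 2030 (WT) and 2379 (KO), with 0.23 as the log2 ratio of the sums. Most of this difference came from *Cd5l*, at 832 in WT and 1142 in KO. *Clec4f*, with 895 and 865, and *Timd4* were lower in KO. The part of Kupffer cells in the ratio of *Ucp2* was not tested. *Slc25a30* had a ratio of 0.39 with values of 74.4 and 97.5.

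The outer membrane group and carriers of unclear cargo had 3 members past the filter, all below 0, with a median of -0.18. *Slc25a46*, an outer membrane protein linked to mitochondrial division, had -0.60 with values of 178 and 118. *Mtch1* had -0.18 with values of 2135 and 1889, and *Mtch2* had -0.10 with values of 1690 and 1573. *Slc25a46* shares 7.1% of its exon bases with a gene on the opposite strand. Its nearest coding genes with a mean of at least 10 were *Pik3c3*, 1207985 bases to the left, at 0.00, and *Sap130*, 24460 bases to the right, at -0.06.

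Reads per library were recovered for 18 carriers, of which 6 had a sum of at least 60 normalized reads over the 6 libraries. Normalized reads are reads divided by the size factor, in the order of size factors given above. *Slc25a29* had 84.9, 110 and 152 normalized reads in the WT libraries and 54.1, 91.7 and 49.7 in the KO libraries. Only the KO library with size factor 1.04 reached into the WT range, above the lowest WT library, and the means were 116 ± 33.7 and 65.2 ± 23.1 (SD, n = 3 each). The log2 difference of KO minus WT was -0.83 with a standard error of 0.38. The exact permutation p was 0.20, two-sided, where 3 libraries against 3 allow no p under 0.1. In limma over the 6715 genes with sums of 6 to 600 the unadjusted p was 0.0489 and the Benjamini-Hochberg adjusted p 0.999, and 2.37% of all genes in that fit had an unadjusted p under 0.05. For *Slc25a29*, 5 sets of whole reads fitted its value and the ratio of the deposited KO and WT values chose among them. A set was kept only where its log2 ratio of means was 1.11 to 2.61 times the deposited log2 ratio. The direction and size of the difference, and the p-values above, are therefore not independent of that ratio.

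*Slc25a30* had 127, 39.8 and 47.7 normalized reads in WT and 141, 82.1 and 77.9 in KO. The WT library with size factor 1.22 stood within the KO range and the other WT libraries below it. The log2 difference was 0.62 with a standard error of 0.46 (exact permutation p 0.30), and it ran from 0.30 without the WT library with size factor 0.879 to 1.13 without the one with size factor 1.22. *Slc25a21* had 126, 68.2 and 44.0 in WT and 72.4, 57.9 and 38.4 in KO. Its WT values spread wider than its KO values, and the genotypes overlapped. The log2 difference was -0.40 with a standard error of 0.45 (exact permutation p 0.50), and it was -0.01 without the WT library with size factor 1.22.

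*Slc25a26* had 60.4, 102 and 88.0 normalized reads in WT and 46.5, 76.3 and 72.3 in KO. The lowest value of each genotype came from the library of largest size factor. The log2 difference was -0.36 with a standard error of 0.38 (exact permutation p 0.40). It was -0.14 without the KO library with size factor 1.31 and -0.57 without the WT library with size factor 1.22. As for *Slc25a29*, the ratio of the deposited KO and WT values chose between sets of reads, here 2, so the difference and p are not independent of it. *Slc25a32* had 131, 47.8 and 48.9 in WT and 107, 71.4 and 36.1 in KO. Here the libraries with the largest size factor were the highest in both genotypes. The log2 difference was -0.05 with a standard error of 0.50 (exact permutation p 1), and its sign turned when the KO library with size factor 0.886 or the WT library with size factor 1.22 was left out. *Slc25a4* had 46.5, 46.6 and 23.2 in WT and 39.6, 39.6 and 38.4 in KO. The KO libraries lay close together, inside the WT range, and the log2 difference was 0.08 with a standard error of 0.43 (exact permutation p 1). It was 0.24 without the WT library with size factor 1.22 or 0.879, and turned to -0.24 without the one with size factor 0.818.

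**Figure D4:**
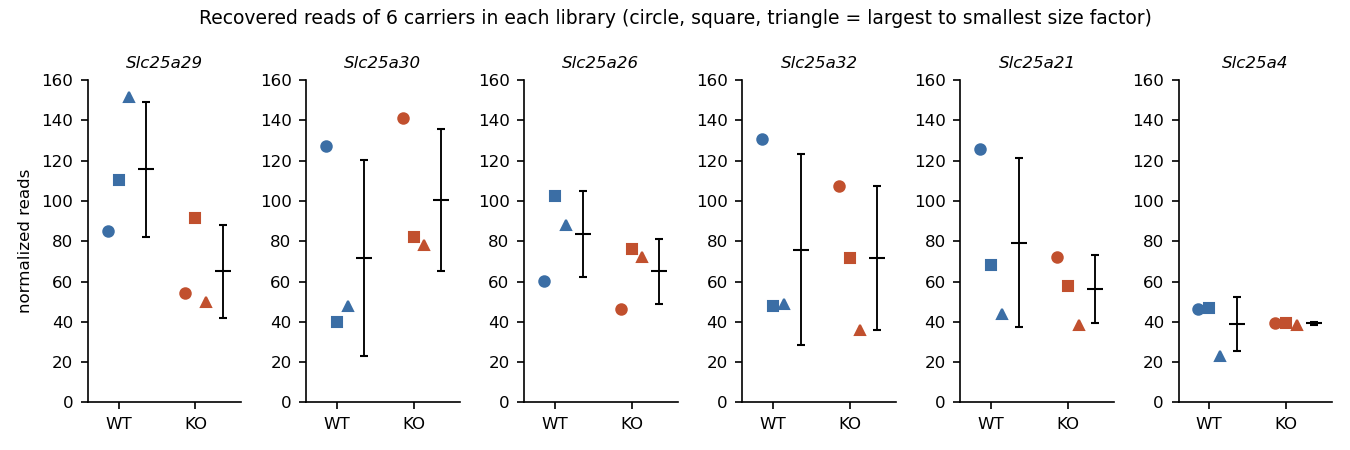
Normalized reads of 6 carriers in each recovered library, WT in blue and KO in red, with circle, square and triangle for the largest to the smallest size factor of the genotype and the mean ± SD (n = 3) beside the points. The genotypes overlap for each of the 6 genes, and *Slc25a30*, *Slc25a32* and *Slc25a21* are highest, within each genotype, in its library of largest size factor.

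In the planned limma fit (3314 genes with sums of 60 to 400), where 1.63% of all genes had an unadjusted p under 0.05 and 0 an adjusted p under 0.05, the single carrier was *Slc25a4*, with an adjusted p of 0.999. Of the 15 recovered carriers with a sum of at least 6, 0 had genotypes that did not overlap, against 6.22% of 6715 such genes. No carrier had a limma adjusted p under 0.05 with any of the settings run, and 1, *Slc25a29*, had an unadjusted p under 0.05 in the fit of sums of 6 to 600. In that fit 0 of all 6715 genes had an adjusted p under 0.05. Every fit of *Slc25a29* used the reads chosen with the deposited ratio. In both genotypes the library of the largest size factor was compared with the others, and whether it alone stood apart was not tested. Across weakly read genes, the quartiles of its value over the mean of the others were 0.79 and 2.02 in KO and 0.73 and 2.39 in WT. After normalization it had a median of 1.27 times the mean of the other KO libraries and 1.34 times that of the other WT libraries. Of the 6 carriers with a sum of at least 60, it was the highest library for 4 in KO and for 3 in WT. With a term for this library, limma gave *Slc25a29* an unadjusted p of 0.0143 and an adjusted p of 0.63, and *Slc25a30* 0.045 and 0.71, in a fit in which 6.87% of all 6715 genes had an unadjusted p under 0.05. Over all genes, 3 of these 6715 had a limma adjusted p under 0.05 with the term, and 1 with the libraries centred. With the term in the fit of sums of 60 to 400, 2 of 3314 genes did.

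The other 12 recovered carriers had sums under 60 normalized reads. *Slc25a27* (UCP4, known from brain) had 21, 2 and 2 reads in WT and 8, 4 and 0 in KO, so most of its WT reads came from 1 library. *Slc25a40* had 16, 5 and 4 reads in WT and 16, 10 and 5 in KO. *Slc25a24* had 12, 7 and 2 in WT and 17, 2 and 3 in KO. For these genes the libraries of a genotype differ more than the genotypes do. *Slc25a14*, *Slc25a35* and *Slc25a36* had 16, 22 and 9 reads in all WT libraries and 20, 20 and 10 in all KO libraries. At the lowest levels *Slc25a53* had 7 reads in WT and 3 in KO, *Slc25a31* and *Slc25a43* had 2 and 2 each, and *Slc25a18* had 0 and 2. A total of 0 reads allows up to 3 reads, by counting error alone. *Slc25a31* (ANT4) is known from male germ cells, and the 4 testis markers looked up, *Ddx4*, *Tnp1*, *Prm1* and *Sycp3*, have no line in the table.

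*Ucp1*, the uncoupling protein of brown fat, had 0, 11 and 0 reads in the WT libraries and 7, 11 and 0 in the KO libraries. Its reads came from 3 libraries, and these were the 3 libraries with the most reads of *Cidea*, a lipid droplet gene of brown fat, which had 0, 15 and 1 reads in WT and 15, 20 and 0 in KO. *Plin1* and *Adipoq*, genes of fat cells, had most reads in 1 KO library, with 40 and 61 reads in the library with size factor 1.31. In WT *Plin1* had 0, 4 and 0 reads and *Adipoq* 0, 2 and 0. Of the 5 fat markers 4 were in the table, 3 of these with higher values in KO, and their sum of 2049 in WT and 1858 in KO was made up almost wholly by *Cidec*, which the fasted liver also expresses. *Lep* has no line in the table, and the part of fat tissue in the *Ucp1* reads was not tested.

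*Ucp3*, known from muscle and brown fat, had 1, 5 and 1 reads in WT and 3, 5 and 1 in KO. The 2 libraries with 5 reads each were those with 11 *Ucp1* reads. Of the 6 muscle markers 4 were in the table, 2 of these with higher values in KO, and they summed to 15.2 in WT and 17.6 in KO. *Ckm*, the creatine kinase of muscle, had 1, 3 and 0 reads in WT and 5, 4 and 11 in KO, and *Acta1*, the actin of skeletal muscle, 1, 5 and 2 in WT and 1, 4 and 16 in KO. *Mylpf*, a myosin light chain of fast muscle, had 3, 14 and 6 reads in WT and 7, 7 and 3 in KO. The KO library with size factor 0.886 thus had the most reads of *Ckm* and *Acta1* and the fewest of *Mylpf* within KO, and the WT library with size factor 0.879, with 5 *Ucp3* reads, had the most of all 3 markers within WT. *Tnnt3* had 1 read in all, and *Myh1* and *Myh4* have no line in the table. The part of muscle in the reads of *Ucp3* and of *Slc25a4*, which muscle also expresses, was not tested.

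**Figure D5:**
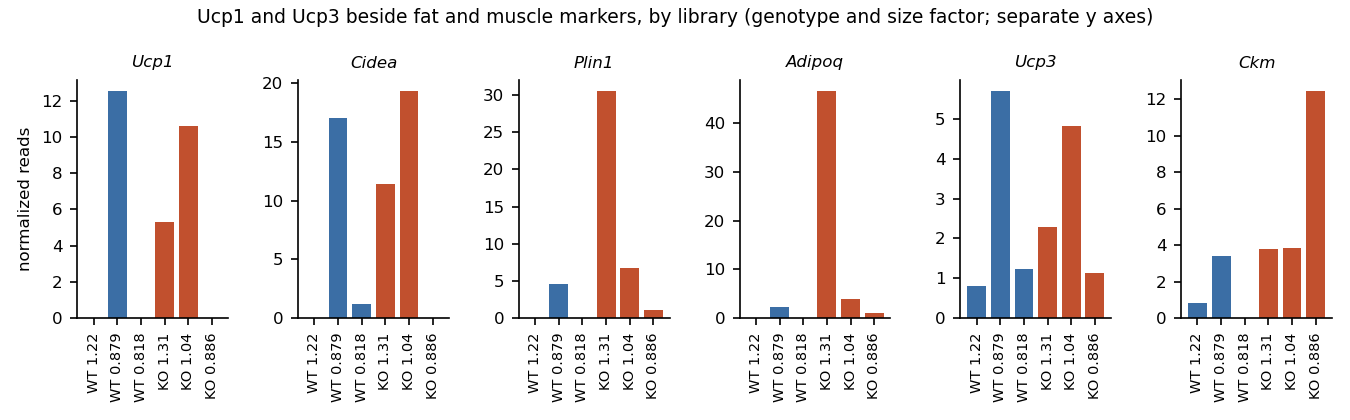
Normalized reads of *Ucp1* and *Ucp3* beside fat markers (*Cidea*, *Plin1*, *Adipoq*) and 1 of the muscle markers (*Ckm*) in each recovered library, named by genotype and size factor, with a separate y axis from 0 for each gene. *Ucp1* reads appear in the same 3 libraries as most *Cidea* reads, and *Plin1* and *Adipoq* are highest in the KO library with size factor 1.31.

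Genes that work with the carriers were looked up in 9 lists of 51 symbols, and 46 of them had a mean of at least 10. Of these 46, 17 had a ratio above 0 and 29 below, with a median of -0.07, against 57.7% below 0 and a median of -0.05 for all genes. Beyond 0.5 there was 1, *Gabpa*, a factor that drives many mitochondrial genes, at -0.62, against 10.4% of all genes. For import of carriers through TOM70 and TIM22, 10 of 12 were below 0, with a median of -0.18 and the lowest value, -0.36, for the pore protein *Tomm40*. The 6 urea cycle enzymes, whose substrates pass through *Slc25a15* and *Slc25a13*, were all below 0 with a median of -0.23, from -0.46 for *Asl* and -0.43 for *Otc* to -0.10 for *Cps1*, while *Slc25a15* and *Slc25a13* were at 0.10 and 0.30.

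The mitochondrial pyruvate carrier, a family of its own, had ratios of -0.30 for *Mpc1* and -0.07 for *Mpc2*. The 3 VDAC channels of the outer membrane lay between -0.08 and 0.04. Of the calcium uniporter genes 4 passed the filter, with a median of -0.08. The 4 sideroflexins past the filter, carriers of serine and related amino acids, were all above 0, with a median of 0.23 and the highest value, 0.34, for *Sfxn1*. Beside *Slc25a1*, the ATP citrate lyase gene *Acly* had 0.36 and malic enzyme *Me1* had 0.24. Of the shuttle enzymes beside *Slc25a13* and *Slc25a11*, *Got1* had -0.29 and the other 3 lay between -0.01 and 0.06. Among the regulators, *Ppara*, the fatty acid sensor of the fasted liver, had 0.48 with values of 3501 and 4872, and *Ppargc1a*, a coactivator of mitochondrial genes, had -0.44 with values of 103 and 76.2. Its relative *Ppargc1b* had 0.24, and *Nrf1*, *Esrra* and *Tfam* had 0.10, 0.07 and -0.27, so that 4 of the 7 regulators were above 0 and 3 below, with a median of 0.07. These ratios have no spread between pools, and none was tested.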

How the data were processed

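Filtering and mapping were done by the authors' sequencing service, which also compared the genotypes with DESeq2. The submitters' processing notes name mm10, HISAT2, Bowtie2, RSEM, StringTie, Cufflinks and GATK without roles or versions. The count of clean reads and the percent of uniquely mapped reads were deposited per library. The expression signal was deposited as 1 value per genotype, in reads divided by DESeq2 size factors. The authors' columns of log2 ratio, p-value, adjusted p and up or down call were not read. For *Txndc5* and *Slc4a1* the log2 ratio of the 2 values, -4.89 and 1.47, is the one the authors published. The log2 ratios given here are therefore not an estimate independent of theirs. Splicing counts were not used either. A single carrier is counted but not reported by name here.

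Log2 ratios were computed from the signal as deposited. The sum of both values, times 3, is the sum of normalized reads over the 6 libraries, and for sums up to 600 the whole reads of each library that give it were enumerated. Where several sets were left, the ratio of the values chose among them. Up to a sum of 400, 99.86% of 8081 genes were resolved, and 67.62% of 979 from 400 to 600. RSEM estimates need not be whole, so these reads are taken as rounded. Between 122127 and 289400 reads per library were recovered, a small part of each library, and intervals and limits cover counting error only. Two-sided limma 3.58.1 (R 4.3.3) on log2(normalized reads + 1) was planned for sums of 60 to 400 (3314 genes, 1 carrier), and the range of 6 to 600 was added after seeing the data. Both steps were tested on simulated data. Single genes were tested with exact permutations (SciPy 1.17.1).

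Positions and lengths came from GENCODE M21. Strand was not stated to be kept in counting, so reads of the 15 carriers that share exon bases with another gene are uncertain. In *Slc25a35*, *Slc25a5* and *Slc25a33*, over 10% of 100-base windows also occur in other genes. The carriers, cargo groups, marker and partner lists were chosen with earlier results of these data known. Genes named with values are the carriers with recovered sums of at least 60, the 8 largest ratios, the 10 highest levels per kb, related pairs, and the others within their group.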

Additional observations from a re-analysis of the deposited data

How the results depend on the processing

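The count of carriers beyond 0.5 stayed at 3 without a filter, with a mean of at least 1, with a pseudocount of 1 and with centring on the median of all genes, and was 8 with a limit of 0.3. The partner genes beyond 0.5, main count 1, were 2 without a filter, 2 with a mean of at least 1, 2 after centring and 8 with a limit of 0.3, and these alternatives were added after seeing the data. After centring, 18 of 36 carriers were above 0 and their median was 0.01. None of the 8 largest ratios turned sign with the pseudocount or the centring. The number of carriers with a limma adjusted p under 0.05 was 0 in every fit run, of which the planned ones held 1 carrier, or 10 with sums from 6. Centring the libraries turned *Slc25a32* to 0.019. Leaving out 1 library in turn gave log2 differences of -1.10 to -0.62 for *Slc25a29*, 0.30 to 1.13 for *Slc25a30*, -0.57 to -0.14 for *Slc25a26*, -0.76 to -0.01 for *Slc25a21*, -0.40 to 0.43 for *Slc25a32* and -0.24 to 0.24 for *Slc25a4*. *Slc25a30* was at 0.35 without the KO library with size factor 1.31 and at 1.13 without the WT library with size factor 1.22, and *Slc25a4* was at -0.24 without the WT library with size factor 0.818. The cause of these shifts was not tested. The share of the 3 highest carriers was 58.8% with the median transcript and 57.8% with the length column. No paired analysis was possible because the WT pools are numbered 1, 2 and 5 and the KO pools 2, 3 and 4, so that only 1 number is shared, and the recovered libraries carry no pool number. For 30 of the 48 carriers no spread between pools is known, because the values were deposited per genotype and whole reads were recovered only for sums up to 600.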
